A study of Mus musculus with 6 samples.

Results

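The 10 genes described here encode small S100 calcium-binding proteins: S100a3, S100a4, S100a6, S100a7a, S100a8, S100a9, S100a10, S100a11, S100a14 and S100a16. They were taken from the deposited table of 45513 gene identifiers by symbol, as a family of genes picked out when earlier results of these data were known, and all 10 had enough counts to be tested. The samples were keratinocytes isolated from the skin of 3 mice deficient in Lama3 (Lama3flox/flox/K14-CreERT) and of 3 control mice, all on a C57BL/6 background. Lama3 encodes the alpha chain of the basement membrane laminin to which basal keratinocytes attach. In the knockouts, loxP sites around exons 50 to 53 of both Lama3 alleles were recombined by a Cre that is driven by the keratin 14 promoter in basal keratinocytes and switched on by tamoxifen in the chow (400 mg tamoxifen citrate per kg). The design text gives the controls as Lama3wt/flox / K14-CreERT, which share the Cre and carry 1 floxed allele, whereas their genotype label reads wild type. It does not say separately whether the controls ate the same chow, and the labels give neither age nor sex.

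S100 proteins are dimers whose helix-loop-helix motifs (EF hands) bind calcium, after which most of them attach to a target protein. Inside keratinocytes their targets include annexins, the cytoskeleton and enzymes of protein modification. S100A8 and S100A9 together form calprotectin, which holds zinc and manganese away from microbes and, once secreted, signals through the receptors TLR4 and RAGE. Calprotectin is abundant in neutrophils and is also made by keratinocytes of wounded or inflamed skin.

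Total counts lay between 24192158 and 28473479 in the knockout libraries and between 20126395 and 25429816 in the control libraries. Levels are given in CPM, which are counts scaled to library size with edgeR's TMM factors, and fold changes as the log2 ratio of knockouts to controls with their standard error (SE). The test was the quasi-likelihood test of edgeR over 15513 genes, with p-values adjusted by the Benjamini-Hochberg method. Rose, fell and called stand for an adjusted p under 0.05, and every adjusted p below is from that test unless another is named. Over all genes tested 17.4% rose and 18.8% fell, and the counts of every gene list below stand beside these shares. Lama3 itself fell by 0.53 on the log2 scale (SE 0.14), with 91.8 ± 10.9 CPM in the knockouts and 132 ± 15.5 CPM in the controls (SD, n = 3 each). These counts cover the whole gene and not the floxed exons alone. The edgeR adjusted p of Lama3 was 0.0215, and lay between 0.0551 and 0.0620 without knockout 1, control 1 or control 2. The basal keratins Krt5 and Krt14 were abundant in both groups, with Krt5 at 7349 ± 1297 and Krt14 at 4719 ± 614 CPM in the knockouts, against 8174 ± 1364 and 4247 ± 511 CPM in the controls (SD, n = 3 each). Summed over 10 keratinocyte markers, the level was 40130 to 60050 CPM in the knockouts and 28800 to 36550 CPM in the controls. Of the 10 markers 4 rose, 1 fell and 5 were not called. Krt10 and Krt1, keratins of the suprabasal layers, were the main part of the difference, with Krt10 at 17065 ± 4448 and Krt1 at 10143 ± 4107 CPM in the knockouts, against 7645 ± 1064 and 2974 ± 1180 CPM in the controls (SD, n = 3 each). Itgb4, an integrin of hemidesmosomes, rose by 0.90 (SE 0.22, edgeR's adjusted p = 0.0166), and the basal keratin Krt15 fell by 0.93 (SE 0.29, 0.0387). No marker rose or fell without knockout 1, 1 rose without control 3, 2 rose without control 1, and the fall of Krt15 was lost without any 1 library other than control 3. Expression of Xist and Ddx3y placed 2 females and 1 male in the knockouts and 1 female and 2 males in the controls.

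All 10 genes lie on chromosome 3 of GRCm38, 8 of them within one run of S100 genes. S100a14 (90526856 to 90528837), S100a16 (90537254 to 90543151), S100a3 (90560578 to 90602702), S100a4 (90603771 to 90606045), S100a6 (90612882 to 90624181), S100a7a (90654017 to 90658669) and S100a8 (90668978 to 90670035) are transcribed from the plus strand, and S100a9 (90692632 to 90695721) from the minus strand. S100a11 (93520488 to 93526287) and S100a10 (93555080 to 93564643) lie on the plus strand beyond a gap of 2820 kb. The promoters of the genes with the largest changes are shown first, since S100a8 and S100a9 rose while S100a3 and S100a4 fell in the same run of genes. Each runs 5′ to 3′ from 250 bases before to 50 bases after the annotated start (RefSeq, GRCm38.p6), with motif matches in capitals.
S100a8, chr3:90668821-90669120, plus strand: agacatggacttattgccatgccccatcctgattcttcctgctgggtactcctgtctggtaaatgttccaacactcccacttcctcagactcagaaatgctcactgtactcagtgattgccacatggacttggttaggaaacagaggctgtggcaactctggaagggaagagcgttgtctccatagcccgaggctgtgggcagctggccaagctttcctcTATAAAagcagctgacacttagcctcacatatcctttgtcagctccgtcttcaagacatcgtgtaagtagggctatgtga
S100a9, chr3:90695672-90695971, minus strand: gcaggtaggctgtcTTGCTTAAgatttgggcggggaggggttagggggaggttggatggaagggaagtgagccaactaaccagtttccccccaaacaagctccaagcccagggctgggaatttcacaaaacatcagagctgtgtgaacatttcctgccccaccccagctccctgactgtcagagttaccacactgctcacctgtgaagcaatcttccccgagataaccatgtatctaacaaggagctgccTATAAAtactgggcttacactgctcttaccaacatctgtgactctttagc
S100a4, chr3:90603520-90603819, plus strand: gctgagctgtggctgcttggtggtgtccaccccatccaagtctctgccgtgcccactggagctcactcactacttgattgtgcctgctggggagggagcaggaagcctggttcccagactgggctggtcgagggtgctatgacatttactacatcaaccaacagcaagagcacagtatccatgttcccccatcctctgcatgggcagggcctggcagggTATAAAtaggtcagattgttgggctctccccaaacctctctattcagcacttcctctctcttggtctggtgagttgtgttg
S100a3, chr3:90599964-90600263, plus strand, the start nearest to S100a4: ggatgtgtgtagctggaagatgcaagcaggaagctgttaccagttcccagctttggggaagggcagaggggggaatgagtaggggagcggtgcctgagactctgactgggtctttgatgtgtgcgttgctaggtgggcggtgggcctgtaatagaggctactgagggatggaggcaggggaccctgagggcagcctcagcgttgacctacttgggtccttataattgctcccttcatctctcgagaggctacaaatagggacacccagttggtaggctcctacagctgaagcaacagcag

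The motifs searched on both strands were the TATA box (TATAAA), AP-1 (TGANTCA), C/EBP (TTGCNNAA) and STAT (TTCNNNGAA). A TATA box stood 30 bases before the start of S100a8 and 31 bases before that of S100a4, and in S100a9 it began at the annotated first base. The S100a9 promoter also held a C/EBP match, 236 bases before the start. The S100a3 window shown held no match, and 1 of its 3 other annotated starts had a TATA box 52 bases upstream. RefSeq promoters were matched for 8 of the 10 genes, 12 in all. Among the others, S100a7a had a STAT match, S100a11 had 2 AP-1 matches and S100a16 had 1 at 1 of its 2 starts. Over 32851 promoters of this length, 13.6% held the TATA box, 7.81% AP-1, 10.8% C/EBP and 8.30% STAT, and these matches are descriptions of the letters only.

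The genes moved in opposite directions. S100a8 and S100a9 rose, with mean CPM in the knockouts 43.3 and 53.1 times that in the controls, while S100a3, S100a4, S100a6, S100a14 and S100a16 fell. S100a7a, S100a10 and S100a11 did not pass the test. In all 7 of the 10 genes were called, where 36.2% of all genes tested were. Of the 10 genes 2 rose, where 17.4% of all genes did, and 5 fell, where 18.8% did. The 3 knockout libraries lay wholly above the 3 controls for 2 of the 10 genes and wholly below for 5, against 25.2% and 26.5% of all genes tested. The median log2 fold change was -0.63 over the 10 genes and -0.02 over all genes tested. Leaving out knockout 2, control 1 or control 3 left 2 genes lower, and leaving out knockout 1 left 3. Leaving out control 3 left 1 gene higher. In bulk libraries such as these, fewer cells of a type and less RNA per cell cannot be told apart.

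**Figure D1:**
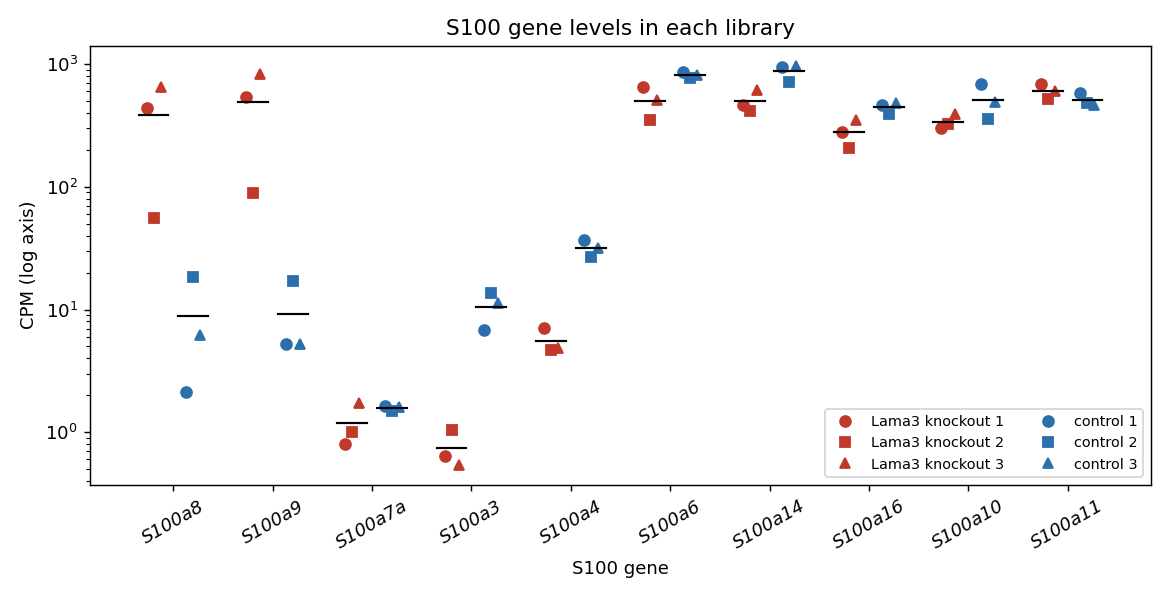
CPM (log axis) of the 10 S100 genes in each library, knockouts in red left of controls in blue, with a black line at each group mean (n = 3 each). Knockout libraries of S100a8 and S100a9 lie above all controls and those of S100a3 and S100a4 below them, with knockout 2 the lowest knockout for S100a8 and S100a9.

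S100a8 encodes the smaller subunit of calprotectin. It was measured at 440.15, 56.2 and 656 CPM in knockouts 1, 2 and 3, against 2.11, 18.3 and 6.17 CPM in controls 1, 2 and 3. The groups did not overlap, but knockout 2 stood well below the other knockouts and was 3.06 times the highest control. The log2 fold change was 5.44 (SE 1.15, edgeR's adjusted p = 0.0141). Without control 3 the adjusted p was 0.0699 and the call was lost, as it was when low counts were kept in the fit (0.0722).

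S100a9 encodes the other calprotectin subunit. It had 541, 88.4 and 833 CPM in knockouts 1, 2 and 3, against 5.25, 17.1 and 5.27 CPM in controls 1, 2 and 3. The order of the knockouts was that of S100a8, with knockout 2 lowest and knockout 3 highest, and control 2 was the highest control for both genes. The log2 fold change was 5.74 (SE 0.96, edgeR's adjusted p = 0.00623), and S100a9 was called in all 15 alternative fits, with adjusted p between 8.92e-08 and 0.0415 over edgeR, DESeq2 and limma.

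The balance between the subunits overlapped between the groups. The ratio of S100a9 to S100a8 CPM was 1.23, 1.57 and 1.27 in the knockouts, against 2.49, 0.930 and 0.854 in the controls (2-sided exact permutation p = 1, where 3 against 3 libraries cannot give less than 0.1). The knockout ratios sat close together and inside the range of the controls, whose ratios rest on 49 to 385 counts of S100a8 per library. The sign of the mean log2 difference of 0.11 turned without knockout 2, control 2 or control 3. Control 1 had the highest ratio of all libraries, from 122 counts of S100a9 and 49 of S100a8. Without it the difference was 0.60, with every knockout ratio above both other controls (2-sided exact permutation p = 0.1, the smallest that 3 against 2 libraries can give). That separation appears only when this library is left out.

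Neutrophils are another known source of calprotectin, and 15 of their marker genes were measured beside it. Their summed level was 15.7 to 38.9 CPM in the knockouts and 4.003 to 8.57 CPM in the controls, and only 2 of the 15, Cxcr2 and Itgam, had enough counts to be tested. These 2 genes supplied most of the sum in every library, and none of the others passed 0.472 CPM in any library. Cxcr2, a chemokine receptor, rose to 31.8, 9.21 and 23.4 CPM in the knockouts, against 0.301, 0.477 and 1.89 CPM in the controls (log2 fold change 4.55, SE 0.71, edgeR's adjusted p = 0.00472). Like S100a8 and S100a9 it was lowest in knockout 2 among the knockouts. The integrin gene Itgam was not called (log2 fold change 0.40, SE 0.25). The neutrophil-defining genes Ly6g, Elane and Retnlg had 0 counts in all 6 libraries, which allows up to 3 counts per library by counting error alone. Csf3r, the receptor for granulocyte colony-stimulating factor, had 1 count in knockout 3, 1 in control 1 and none elsewhere. In the same knockout libraries S100a9 had 12805, 2534 and 22952 counts. Markers of monocytes and macrophages, described further below, summed to 151 to 250.1 CPM in the knockouts and 95.8 to 135 CPM in the controls. The part of neutrophils or other leukocytes in the rise of S100a8 and S100a9 was not tested.

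The genes whose profile over the 6 libraries was nearest to that of S100a9 were Sprr2d, Krt6b and Tmprss11g. Likeness was the mean absolute difference of log2(CPM + 0.1) profiles centred on their means, over 10679 tested genes with a mean of at least 5 CPM, leaving out provisional symbols, and it was 0.38, 0.48 and 0.50. Sprr2d, a small proline-rich protein of the cornified envelope, had 46.9, 8.34 and 75.1 CPM in the knockouts, against 0.129, 1.00 and 0.472 CPM in the controls. Krt6b, a keratin of wounded epidermis, had 1934, 356 and 3396 CPM in the knockouts, against 6.16, 58.5 and 21.9 CPM in the controls. Both were lowest in knockout 2 among the knockouts and highest in control 2 among the controls, as S100a9 was. Such likeness follows in part from the choice of these genes by their profile over the same libraries. Tmprss11g, a membrane serine protease, had 30.5, 8.38 and 59.2 CPM in the knockouts and 0.431, 0.715 and 0.747 CPM in the controls.

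**Figure D2:**
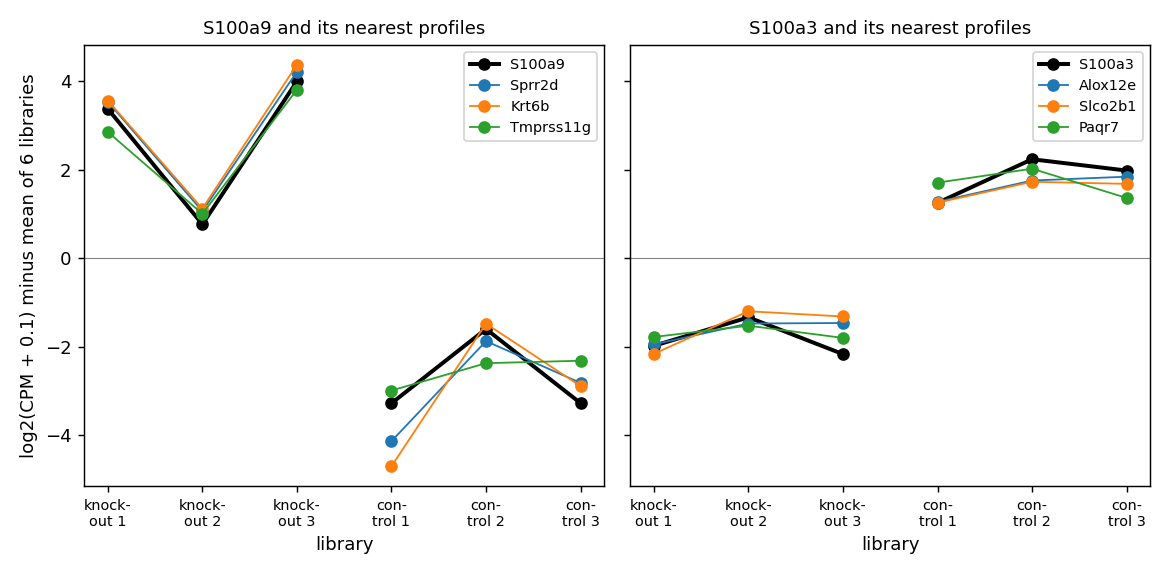
Log2(CPM + 0.1) minus the mean of the 6 libraries for S100a9 (left) and S100a3 (right) in black, each with the 3 genes of nearest profile in colour, knockout libraries left of controls. The dip at knockout 2 and the peak at control 2 are shared by S100a9, Sprr2d and Krt6b, whereas S100a3 and the genes nearest to it differ less within each group than between the groups. The coloured genes were picked for their likeness over these same libraries.

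Secreted calprotectin is read by surface receptors, of which 6 were measured: 2 rose, none fell (1 with upper-quartile factors) and 4 were not called. Of all genes tested 17.4% rose and 18.8% fell. Mcam, a cell adhesion molecule reported to bind calprotectin, had 108, 86.6 and 106 CPM in the knockouts, against 22.6, 25.7 and 49.5 CPM in the controls (log2 fold change 1.61, SE 0.29, edgeR's adjusted p = 0.00634). Tlr4, the receptor for bacterial lipopolysaccharide, was low and rose, with 3.09, 2.09 and 2.54 CPM in the knockouts and 1.12, 1.10 and 1.26 CPM in the controls (1.15, SE 0.27, edgeR's adjusted p = 0.0153). Its call was lost without knockout 1 (0.0524), which left 1 receptor higher. Ager, which encodes RAGE, was not called and differed by 0.06 on the log2 scale (SE 0.27), as did Bsg by 0.02 (SE 0.12). The median over the 6 was 0.09.

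Of 13 transcription factors and cytokine receptors described upstream of S100a8 and S100a9, 7 rose, none fell and 6 were not called. Their median log2 fold change was 0.47, and 17.4% of all genes tested rose and 18.8% fell. Stat3, which carries interleukin 22 and interleukin 6 signals to the nucleus, had 390, 316 and 340 CPM in the knockouts, against 141, 169 and 143 CPM in the controls (1.21, SE 0.14, edgeR's adjusted p = 0.00176). Il22ra1, a chain of the interleukin 22 receptor, rose by 1.63 (SE 0.20, adjusted p = 0.00205). Cebpd, a C/EBP factor, rose by 1.68 (SE 0.23, adjusted p = 0.00269). It had 79.8, 86.8 and 77.4 CPM in knockouts 1, 2 and 3, against 31.0, 29.0 and 16.4 CPM in the controls. Cebpa and Il17rc, a chain of the interleukin 17 receptor, also rose, as did Il17ra and Cebpb. Among these 7, knockout 2, the lowest knockout for S100a8 and S100a9, was the highest knockout for Cebpd and Il17ra. It was the lowest knockout for Stat3, Il17rc and Cebpb, and lay between the other knockouts for Cebpa and Il22ra1. Cebpb had 89.0, 65.6 and 95.5 CPM in the knockouts, against 40.2, 60.5 and 60.3 CPM in the controls. The call of Cebpb was lost without knockout 1, knockout 3, control 1 or control 3 (adjusted p between 0.0646 and 0.108) and with upper-quartile factors (0.0956). That of Il17ra was lost without knockout 1, knockout 2, control 2 or control 3 (0.0705 to 0.125), when sex was a covariate (0.0609) and with upper-quartile factors (0.116). The AP-1 genes Jun, Junb, Fos and Fosl1 were not called. With any 1 library left out, 5 or 6 of the 13 rose.

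S100a7a, the mouse relative of human psoriasin, was low and was not called. It had 0.803, 1.01 and 1.74 CPM in the knockouts, against 1.64, 1.48 and 1.61 CPM in the controls. The groups overlapped, and the log2 fold change of -0.40 (SE 0.35, edgeR's adjusted p = 0.383) had a 95% interval from -1.20 to 0.39. These levels rest on 19 to 48 counts per library in the knockouts and 31 to 41 in the controls. Stretches of 100 to 175 bases of its transcript matched transcripts of 414 other genes at 90% identity or more, as a repeat does, so its few counts are uncertain. Its nearest profiles were those of Hap1 (0.05), Gas5 (0.07) and Zfand5 (0.07), none of which was called.

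S100a3 showed the largest fall of the 10 genes. It encodes a cysteine-rich protein that is known in human hair as a protein of the cuticle. It had 0.634, 1.05 and 0.544 CPM in the knockouts, against 6.80, 13.6 and 11.4 CPM in the controls. The highest knockout was 0.154 times the lowest control, and the knockout values rest on 15, 30 and 15 counts. The log2 fold change was -3.82 (SE 0.37, edgeR's adjusted p = 0.00109), and S100a3 was called in all 15 alternative fits.

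Hair genes moved in the same libraries. Of 14 hair shaft markers measured, 12 had enough counts to be tested. Of these 9 fell, none rose and 3 were not called, where 18.8% of all genes tested fell and 17.4% rose. The median log2 fold change of the hair shaft markers was -2.67. Their summed level was 27.1 to 36.6 CPM in the knockouts and 77.6 to 125 CPM in the controls, and Krt81 had 0 CPM in every knockout. Krt35, a hair keratin, had 0.0423, 0.140 and 0 CPM in the knockouts, against 7.92, 29.3 and 20.6 CPM in the controls. Krt33a, another hair keratin, had 0.0423, 0.0698 and 0.0363 CPM in the knockouts and 2.97, 9.58 and 3.34 CPM in the controls. Padi3, the enzyme known from human hair to convert arginines of S100A3 to citrulline, had 0.127, 0.0698 and 0.218 CPM in the knockouts, against 1.38, 5.62 and 2.56 CPM in the controls (log2 fold change -4.47, SE 0.67, edgeR's adjusted p = 0.00373). Control 1 was the lowest control for S100a3 and Padi3. Among the 9 markers that fell, it was the lowest control for Krt35, Krt33a, Krt31, Msx2 and Lef1. Control 3 was the lowest control for Krt32, Krt33b, Krt34 and Krt81, and control 1 was the highest for Krt32. The part of hair cells in the fall of S100a3 was not tested.

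The genes nearest in profile to S100a3 were sought among those with a mean of at least 5 CPM, which left out most hair keratins. They were Alox12e (0.25), a lipoxygenase of the epidermis, Slco2b1 (0.33), an organic anion transporter, and Paqr7 (0.34), a membrane progestin receptor. Alox12e had 138, 192 and 193 CPM in the knockouts, against 1293, 1804 and 1916 CPM in the controls. The log2 falls of these genes, -3.26, -3.09 and -3.43, were smaller than that of S100a3, although the differences were not tested.

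S100a4 encodes a protein of migrating cells that binds the heavy chain of non-muscle myosin and is well known from fibroblasts and leukocytes. It had 7.02, 4.64 and 4.86 CPM in the knockouts, against 37.0, 26.8 and 31.8 CPM in the controls. The groups were far apart, and the highest knockout was 0.262 times the lowest control. The log2 fold change was -2.54 (SE 0.21, edgeR's adjusted p = 0.000644), the smallest adjusted p of the 10 genes, and the call held in all 15 alternative fits. Myh9, the myosin heavy chain that it binds, moved the other way, with 391, 417 and 355 CPM in the knockouts and 202, 258 and 246 CPM in the controls (0.72, SE 0.15, edgeR's adjusted p = 0.00985).

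Markers of other skin cells changed beside S100a4, where 17.4% of all genes tested rose and 18.8% fell. Of 11 fibroblast markers 4 fell, none rose and 7 were not called, and their summed level was 312 to 329 CPM in the knockouts and 407 to 496 CPM in the controls (2 fell without knockout 1, and 1 marker rose without knockout 2 or control 2). Dcn, decorin, had 2.41, 1.92 and 2.94 CPM in the knockouts, against 5.90, 8.10 and 8.02 CPM in the controls, and the collagen genes Col1a1 and Col3a1 were not called. Of 10 T cell markers 9 fell, none rose and 1 was not called, with summed levels of 108 to 152 CPM in the knockouts and 185 to 384 CPM in the controls. Cd3e had 5.45, 6.00 and 7.22 CPM in the knockouts and 22.4, 15.5 and 19.8 CPM in the controls. Of 7 Langerhans cell markers 1 fell, Cd207, and 6 were not called, with summed levels of 765 to 984 CPM in the knockouts and 731 to 1572 CPM in the controls. The fall of Cd207 was lost without knockout 1, 2 or 3, control 1 or control 3, and 4 markers fell without control 2. Among 11 tested markers of monocytes and macrophages, 5 were higher, 1 was lower and 5 did not pass, with summed levels of 151 to 250.1 CPM in the knockouts and 95.8 to 135 CPM in the controls. C1qa, a complement gene of macrophages, had 3.30, 4.61 and 7.04 CPM in the knockouts, against 1.42, 0.810 and 1.34 CPM in the controls (2.06, SE 0.36, edgeR's adjusted p = 0.00592), and C1qb rose by 1.66 (SE 0.38, 0.0139). The marker that fell was Ccr2, with 0.803, 0.314 and 1.42 CPM in the knockouts, against 2.80, 3.24 and 7.31 CPM in the controls (-2.40, SE 0.58, edgeR's adjusted p = 0.0167). Cd68, Csf1r, Adgre1, Lyz2 and Mrc1 were not called. Between 2 and 3 of the 11 rose, and none to 2 fell, when any 1 library was left out. The log2 fold change of S100a4 was -2.54 (SE 0.21). Among the fibroblast markers it was -1.60 (SE 0.24) for Dcn and -1.21 (SE 0.17) for Thy1. Among the T cell markers it was -1.63 (SE 0.19) for Cd3e, -1.99 (SE 0.28) for Cd3g and -2.56 (SE 0.45) for Cd3d. Differences between these falls were not tested. The part of these cells in the fall of S100a4 was not tested.

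**Figure D3:**
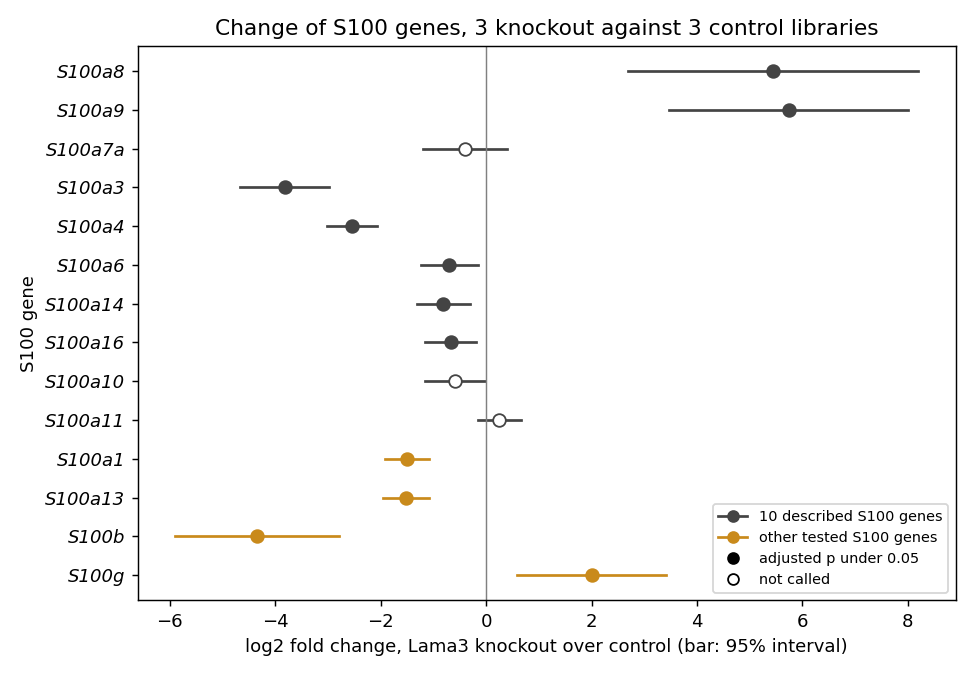
Log2 fold change of knockout over control (x axis) for the 10 S100 genes (dark) and the 4 other tested S100 genes (ochre), with 95% intervals from the edgeR fit of 3 against 3 libraries. Filled points passed an adjusted p under 0.05, and the intervals of S100a7a and S100a11 reach across 0.

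S100a6, S100a14 and S100a16 are abundant in epithelia and fell by less. S100a6, calcyclin, had 650.05, 349.95 and 506 CPM in the knockouts, against 863, 766 and 818.5 CPM in the controls. S100a14, a gene expressed mainly in epithelia, had 469, 412 and 621 CPM in the knockouts and 953, 712 and 969 CPM in the controls. S100a16 had 279, 209 and 353 CPM in the knockouts and 464, 391 and 486 CPM in the controls. In each of these genes every knockout lay below every control, and knockout 2 was the lowest library.

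The log2 fold changes were -0.70 for S100a6 (SE 0.23, edgeR's adjusted p = 0.0476), -0.81 for S100a14 (SE 0.22, 0.0227) and -0.67 for S100a16 (SE 0.21, 0.0376). These calls were narrow. That of S100a6 was lost without any library other than knockout 1, with edgeR's adjusted p between 0.0697 and 0.124. That of S100a14 was lost without knockout 1, knockout 2, control 1 or control 3 (0.0600 to 0.0838), as was that of S100a16 (0.0860 to 0.106). The fold changes kept their sign in all 15 alternative fits. Cacybp, the calcyclin-binding protein, fell by 0.71 on the log2 scale (SE 0.17, edgeR's adjusted p = 0.0167). Its call was lost without knockout 1, knockout 2, control 1 or control 3 (0.0505 to 0.0631).

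S100a10 and S100a11 are the partners of annexins at the inner face of the membrane. S100a10, also called p11, has lost calcium binding and forms a tetramer with annexin A2. It had 301, 324 and 395 CPM in the knockouts, against 692, 357 and 491 CPM in the controls. Control 2 lay inside the range of the knockouts and control 1 far above it. The log2 fold change of -0.59 (SE 0.25, edgeR's adjusted p = 0.0943) was not called, and it was called without control 2 (-0.79, 0.0321). Its unadjusted 95% interval ran from -1.17 to -0.02.

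Anxa2 itself was not called, with 1854 ± 93.1 CPM in the knockouts and 1583 ± 282 CPM in the controls (log2 fold change 0.23, SE 0.20). The ratio of S100a10 to Anxa2 CPM was 0.163, 0.166 and 0.224 in the knockouts, against 0.369, 0.229 and 0.374 in the controls. Every knockout ratio was below every control, and the 2-sided exact permutation p of 0.1 is the smallest that 3 against 3 libraries can give. The mean log2 difference was -0.79, and between -1.03 and -0.67 with 1 library left out.

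S100a11, which binds annexin A1, had the smallest log2 fold change of the 10 genes. It had 693, 517 and 602 CPM in the knockouts, against 579.9, 482 and 464 CPM in the controls. The groups overlapped, and the log2 fold change was 0.25 (SE 0.18, edgeR's adjusted p = 0.295) with a 95% interval from -0.16 to 0.65. Anxa1 differed by 0.26 (SE 0.26) and was not called. The pseudogene Gm12854 is 99.0% identical to S100a11 over 297 bases and drew 2833, 2823 and 3730 counts in the knockouts and 2865, 2297 and 2672 in the controls. The split of reads between S100a11, at 14814 to 16597 counts in the knockouts and 10115 to 13465 in the controls, and this copy is therefore uncertain.

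Among all 12 intracellular binding partners measured, 2 rose, 3 fell and 7 were not called, with a median log2 fold change of 0.10. The shares over all genes tested were 17.4% higher and 18.8% lower. Besides Myh9, Ahnak rose (0.80, SE 0.22), a giant scaffold protein that binds the complex of S100a10 and annexin A2. Anxa6, an annexin that binds several S100 proteins, had 20.8, 17.6 and 21.0 CPM in the knockouts, against 38.6, 45.6 and 46.4 CPM in the controls (-1.14, SE 0.13, edgeR's adjusted p = 0.00154). Without knockout 1, knockout 2, control 1 or control 2 only 1 partner rose, without knockout 1, knockout 2, control 1 or control 3 only 2 fell, and with upper-quartile factors 1 rose and 5 fell.

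The summed level of the 10 genes overlapped between the groups. It was 3381, 1963 and 3973 CPM in the knockouts, against 3605, 2785 and 3286 CPM in the controls (2-sided exact permutation p = 0.9). The sign of the mean log2 difference of -0.11 turned without knockout 2 (0.19). The 10 genes held 0.198% to 0.394% of the library counts in the knockouts and 0.290% to 0.352% in the controls. The make-up changed more than the sum. S100a8 and S100a9 supplied 29.0%, 7.37% and 37.5% of the summed CPM in the knockouts, against 0.204%, 1.27% and 0.348% in the controls. The 8 genes without them summed to 2400.0, 1819 and 2485 CPM in the knockouts and to 3597, 2750.0 and 3274 CPM in the controls, which did not overlap.

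**Figure D4:**
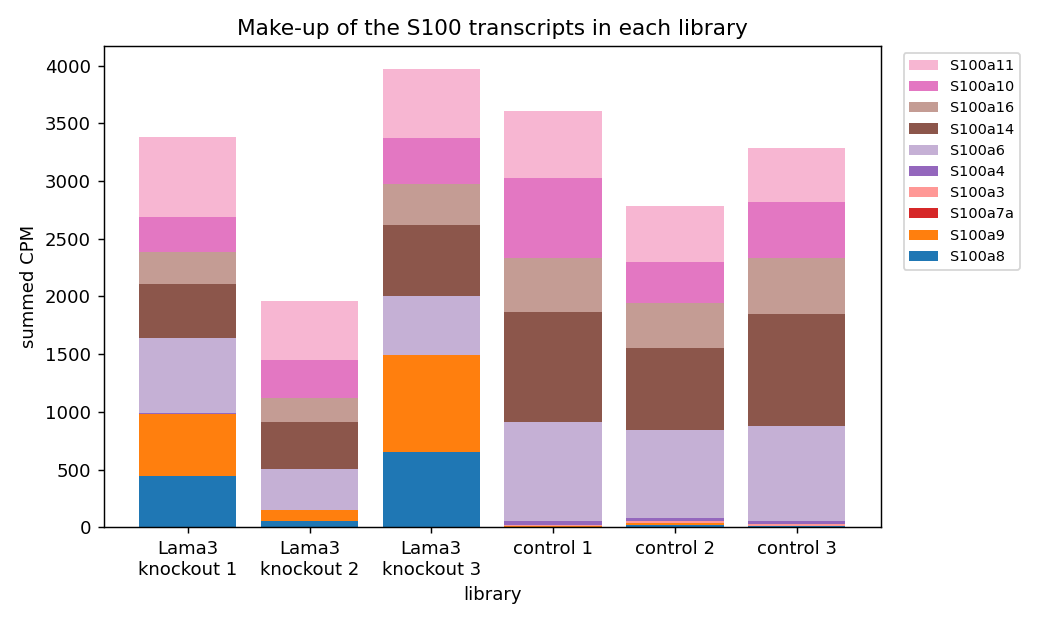
Summed CPM of the 10 S100 genes in each library, knockouts left of controls, stacked by gene. The stacks reach 1963 to 3973 CPM in knockouts and 2785 to 3605 CPM in controls, and S100a8 and S100a9 fill a larger part in each knockout than in any control.

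Levels can be set between genes only per length, here as CPM per kilobase of annotated exon (RPKM). In the knockouts the order was S100a11 (1182), S100a9 (934), S100a8 (553), S100a6 (367), S100a14 (289.9), S100a10 (281), S100a16 (173), S100a4 (9.43), S100a7a (0.861) and S100a3 (0.131). From S100a11 down to S100a10 each gene overlapped the next over the 3 knockouts, and below that no neighbours overlapped. In the controls it was S100a11 (996), S100a6 (597), S100a14 (508), S100a10 (424), S100a16 (276), S100a4 (54.6), S100a9 (17.6), S100a8 (12.8), S100a3 (1.87) and S100a7a (1.14). There S100a6 overlapped S100a14, S100a14 overlapped S100a10, S100a10 overlapped S100a16 and S100a9 overlapped S100a8. Per length of the first annotated transcript, S100a6 (1116) stood above S100a11 (996) in the controls and S100a8 above S100a9 there, and S100a3 (1.04) above S100a7a (0.927) in the knockouts. The exon length of S100a3 counts 5660 bases, of which that transcript holds 712.

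The remaining S100 genes of the mouse gave a frame for the 10. Of 7 measured, 4 could be tested. S100a1, S100a13 and S100b fell and S100g rose, a call lost without any 1 library other than control 3, with a median log2 fold change of -1.51. S100a1, known mainly from muscle, had 14.3, 9.08 and 12.8 CPM in the knockouts, against 36.6, 32.4 and 33.3 CPM in the controls (-1.50, SE 0.18, edgeR's adjusted p = 0.00174). S100a13, which takes part in the release of interleukin 1 alpha, had 9.39, 10.1 and 8.93 CPM in the knockouts and 34.9, 21.9 and 24.5 CPM in the controls (-1.52, SE 0.19, edgeR's adjusted p = 0.00206). These 2 genes stand head to head with 0.043 kb between them, and next to S100a14. Along the cluster, every tested gene from S100a1 to S100a6 fell, S100a7a was not called, and S100a8 and S100a9 at its end rose.

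**Figure D5:**
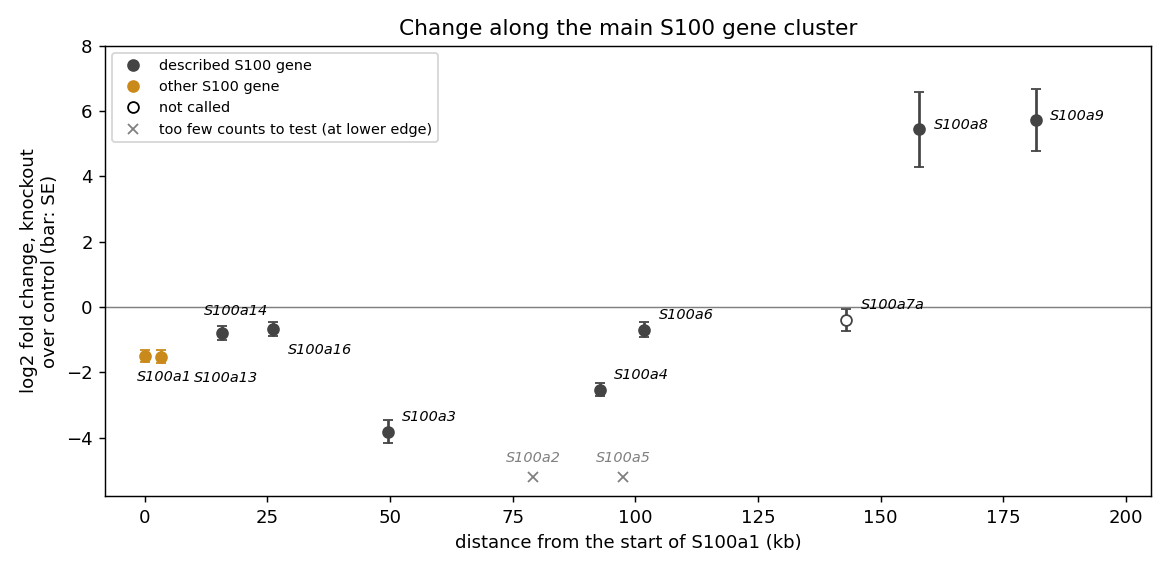
Log2 fold change of knockout over control (SE bars) against the distance of each gene's start from that of S100a1, in kb, with S100a10 and S100a11 outside the range. S100a8 (157.9 kb) and S100a9 (181.6 kb) rose at one end, and the called genes from 0 to 101.8 kb fell. Crosses mark S100a2 and S100a5, too low to test.

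The fused S100 genes, whose long proteins begin with an S100 domain and serve the cornified layer and hair, moved both ways. Of 6 tested 3 rose and 3 fell, where 17.4% of all genes tested rose and 18.8% fell, with a median of 0.49. With each library left out 2 to 4 rose and 2 to 3 fell. Flg2, filaggrin 2, rose by 2.45 (SE 0.63), but its groups overlapped. Its call was lost without knockout 1, knockout 2, control 2 or control 3 (edgeR's adjusted p between 0.0642 and 0.0912). Rptn, repetin, had 149, 55.5 and 126 CPM in the knockouts, against 6.89, 8.29 and 8.92 CPM in the controls (3.78, SE 0.37, edgeR's adjusted p = 0.00127). Hrnr, hornerin, rose by 2.47 (SE 0.35), and Crnn, cornulin, fell by 4.55 (SE 0.65) to 0.211, 0.105 and 0.0363 CPM in the knockouts, against 1.72, 4.72 and 1.93 CPM in the controls. Rptn was lowest in knockout 2 among the knockouts, as S100a8 and S100a9 were.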

How the data were processed

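RNA-seq counts per gene of 6 keratinocyte libraries, 3 from Lama3 knockout and 3 from control mice, were used as deposited by the authors in 1 table of whole-number counts. The tools were featureCounts 1.4.6, TopHat 1.3.3 and Cuffdiff 1.3.0 on GRCm38, per the submitters' processing notes. Their settings, the annotation release and the use of strand or of reads with several matches are not given in the sources used here. The labels name separate mice, so each library was 1 replicate, and no 2 columns were identical.

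Symbols came from GENCODE M21 of GRCm38 (44585 of 45513 identifiers). The 928 others held 0.103% to 0.156% of counts and stayed in. Counts were fitted with edgeR 4.0.16 under R 4.3.3 (TMM, filterByExpr, robust quasi-likelihood, group only), and 15513 genes were tested. The steps were tested on simulated counts. Single values per library were compared by a 2-sided exact permutation test. Intervals of fold changes are 95% and unadjusted. Near-identical transcripts were searched with BLAST+ 2.17.0 (at least 90% identity over 100 bases). Exact low counts carry counting error, which sets the precision at these depths.

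The 10 genes were found by symbol, and they, the gene lists, the tests and the named genes were chosen with earlier results of these data known. Named are all 10 genes, the 3 called members of each S100-related list with the smallest p (2 of each marker list), Anxa1, Anxa2 and the 3 genes of nearest profile to S100a9, S100a7a and S100a3. Other named genes were chosen after their values were seen, as were the promoter motifs. Alternatives were DESeq2 1.42.0, limma-voom (limma 3.58.1), DESeq2 and upper-quartile factors, other filters, fits without robust estimation, with the replicate number or sex, with each library left out, and an adjusted p under 0.01. S100a7l2 and Krt85 had no identifier by that symbol and were not analysed here.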

Additional observations from a re-analysis of the deposited data

How the results depend on the processing

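Of 150 fold changes of the 10 genes under the alternatives, 150 kept the sign and 131 kept the call of the values reported. The number of the 10 genes that rose was 1 with no filter on low counts, 1 with the replicate number as a block and 1 at an adjusted p under 0.01, and 1 to 2 with each library left out. The number that fell was 3 with sex as a covariate, 2 at an adjusted p under 0.01 and 2 to 5 with each library left out. With sex as a covariate S100a6 (edgeR's adjusted p = 0.0670) and S100a16 (0.0562) lost their calls, and the cause was not tested. Over all genes tested, 1756 rose with upper-quartile factors, which moved the median log2 fold change to -0.17. At an adjusted p under 0.01, 1115 rose and 1009 fell, and with each library left out 1586 to 2754 rose and 1714 to 2771 fell. With upper-quartile factors 30.6% of the called genes were higher, against 48.0% as reported, and the 10 genes kept their calls. The mean log2 difference of the summed level of the 10 genes ran from -0.32 to 0.19 with each library left out, and that of the ratio of S100a9 to S100a8 from -0.17 to 0.60. The labels do not say whether the replicate numbers pair the samples. Deviations of same-numbered libraries correlated at -0.11, -0.10 and 0.42 over genes, and so few values cannot show whether pairs exist. The S100a8 call was lost under the replicate block (edgeR's adjusted p = 0.0611). At these depths S100a3 in the knockouts and S100a7a in all libraries rest on few counts.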

Other observations

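S100 genes outside the 10 with few counts were S100b, S100g, S100z, S100a2 and S100a5. S100b, known from glia, melanocytes and human Langerhans cells, had 3, 0 and 3 counts in the knockouts, against 34, 50 and 28 counts in the controls (log2 fold change -4.35, SE 0.67, edgeR's adjusted p = 0.00392). S100g, the vitamin D dependent calbindin of intestine, had 17, 24 and 19 counts in the knockouts, against 1, 2 and 10 counts in the controls (2.00, SE 0.61, adjusted p = 0.0359). Its call was lost without any 1 library other than control 3, with edgeR's adjusted p between 0.0592 and 0.0964. S100a2 and S100a5 had 0 or 1 count in every library and S100z had 5 to 15, and they were not tested.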
